A study of Amolops torrentis with 15 samples.

Results

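The comparison described here sets brains of female torrent frogs (Amolops torrentis) given a visual stimulus against brains from a blank contrast group, across every deposited transcript feature. The 6 libraries were chosen by the stimulus that the sample labels name: 3 visual and 3 blank contrast, of 15 in all. The series asked how the female brain responds to sexual cues that are seen, heard or both, and its other 9 libraries are 3 each of acoustic, audiovisual and dark contrast. Whole brain was the tissue in every group, and no genotype, age or treatment other than the stimulus is given. The labels do not say what the blank contrast frogs saw, how long a stimulus lasted, or whether a library is 1 frog or a pool, so the p-values measure only the spread between these libraries, which may be partly technical.

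Light signals reach the frog brain from the retina, mainly through the optic tectum of the midbrain and the thalamus. Neurons that fire strongly switch on immediate early genes such as fos and egr1, which makes their transcripts a common readout of recent activity. A whole brain mixes responding cells with all others, so a change limited to few neurons is diluted in the total, and fewer cells of a type cannot be told apart from less RNA per cell.

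The table held 44351 features, which are clustered transcripts of an assembly and not genes, and 18523 of them carried a gene symbol through their Swiss-Prot match. The test used 42619 features with a mean of at least 1 FPKM (a level corrected for the length of the feature and the depth of the library) over the 15 libraries, 17950 of them with a symbol. Estimated counts per library ran from 12639388 to 15677704 in the 6 libraries. Levels below are CPM, counts scaled to a common library total, after TMM scaling. Correlations of log2 CPM between libraries ran from 0.940 to 0.942 within the groups and from 0.939 to 0.941 between them. All 5 neuronal markers looked for were present, among them SNAP25, a synaptic fusion protein, at 1352 ± 110 FPKM in visual and 1379 ± 62.2 FPKM in blank contrast brains (SD, n = 3 each). The oligodendrocyte markers were all found as well, 4 of 4. Of 4 microglial, 4 choroid plexus and 5 retinal markers, none stood on a feature, so those cell types could not be checked by them.

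Visual and blank contrast brains differed in no feature after adjustment in edgeR or in limma on log2(FPKM + 1), while DESeq2 called 32. edgeR's quasi-likelihood test gave 0 of 42619 features (0%) with a Benjamini-Hochberg adjusted p under 0.05. At an unadjusted p under 0.05 it gave 1988 features (4.66%), of which 984 were higher in visual brains (2.31%) and 1004 lower (2.36%). limma gave 0 adjusted calls as well, with 2187 features (5.13%) at an unadjusted p under 0.05. The DESeq2 calls were among 34340 features to which it gave an adjusted p (0.0932%), 19 higher and 13 lower, 17 of them with a symbol. Libraries of the groups did not overlap for 4430 features (10.4%), 2137 with all visual libraries higher (5.01%) and 2293 with all lower (5.38%). With 3 libraries a side and no difference, the probability of no overlap is 0.1 for a feature, so separation alone marks little.

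The precision of the log2 fold change depended on the level of the transcript. These SEs do not give the size of difference that adjustment over 42619 features would call. A feature of AFTPH at -1.93 ± 0.32 (log2, SE) had an edgeR adjusted p of 0.417. The median SE of the log2 fold change was 0.57 for the 6184 features under 1 CPM, 0.23 for the 12481 features between 10 and 100 CPM, and 0.12 for the 80 features at 1000 CPM and above. Abundant transcripts sat close to no difference: the interquartile range of the log2 fold change over those 80 features was -0.06 to 0.07. Over all tested features the median log2 fold change was -0.00, with 21093 above 0 and 21526 below.

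**Figure D1:**
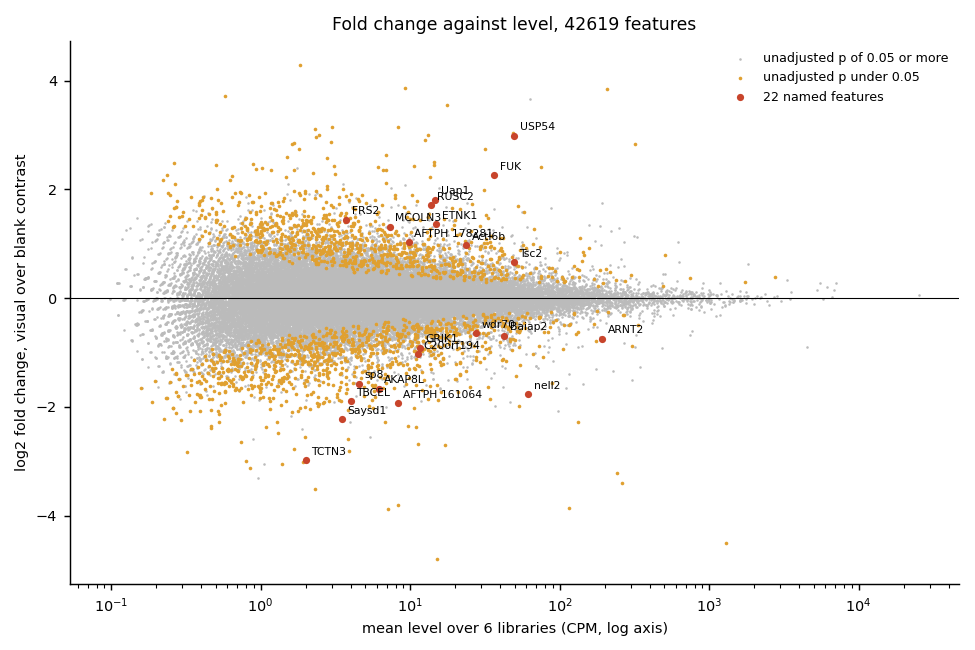
Log2 fold change of visual over blank contrast (vertical axis) against mean level over the 6 libraries in CPM (horizontal axis, log scale), 1 point a feature. Orange points have an unadjusted p under 0.05 (1988 of 42619), and red points are the 22 named features, none of which passed the adjusted threshold in edgeR.

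The features named next are 10 higher and 12 lower ones, taken from the 12 in each direction with a symbol and the smallest unadjusted p. Since they were picked by that p, their values are a description. Among the higher ones, USP54, which encodes a protein related to ubiquitin hydrolases but predicted inactive, had 59.4, 87.1 and 119 CPM in the visual libraries against 13.3, 6.74 and 13.3 CPM in blank contrast. All 3 visual libraries lay above all 3 blank contrast libraries. Its log2 fold change was 2.99 ± 0.57 (SE), with an adjusted p of 0.468 in edgeR and 0.000515 in DESeq2. Another USP54 feature (Cluster-46846.153370) was lower, with 10.5, 25.8 and 8.17 CPM against 50.3, 57.1 and 53.8 CPM, and the sum over 5 features differed by 0.24 ± 0.13 (log2; unadjusted p = 0.0889 in edgeR). Uap1, an enzyme that makes the sugar donor UDP-N-acetylglucosamine, had 31.2, 18.3 and 19.3 CPM against 10.1, 5.25 and 4.33 CPM. The groups did not overlap, and its log2 fold change was 1.81 ± 0.36, with an adjusted p of 0.548 in edgeR and 0.0035 in DESeq2, against 0.44 for the sum of the Uap1 features. ETNK1, which starts phosphatidylethanolamine synthesis by phosphorylating ethanolamine, had 20.7, 20.04 and 23.8 CPM against 4.50, 9.93 and 10.7 CPM, with a log2 fold change of 1.36 ± 0.28. The other ETNK1 feature had 14.9, 12.8 and 8.25 CPM against 19.2, 28.2 and 17.9 CPM, and the sum of both differed by 0.16 ± 0.22 (log2).

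Tsc2, a subunit of the tuberous sclerosis complex, which restrains the growth kinase mTORC1, had 59.9, 55.9 and 66.5 CPM in visual against 38.6, 38.5 and 37.8 CPM in blank contrast brains. The visual libraries were higher without overlap, with a log2 fold change of 0.67 ± 0.18 and an edgeR adjusted p of 0.9997. Tsc2 stood on another feature too, and the sum of both differed by 0.24 (log2; unadjusted p = 0.0784 in edgeR). Actl6b, a subunit of the neuronal chromatin remodelling complex BAF, had 28.4, 33.3 and 33.2 CPM against 21.3, 13.1 and 13.9 CPM, with a log2 fold change of 0.97, and 0.19 for the sum of its features. FUK, the fucose salvage kinase, was carried by 1 library: it had 138 CPM in visual 1, 25.5 and 18.5 CPM in the other visual libraries, and 11.1 to 15.3 CPM in blank contrast.

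Of the 12 lower features, C20orf194, whose human counterpart is now named as a dynein axonemal assembly factor, varied little within its groups. It had 7.24, 7.58 and 7.29 CPM in visual against 16.7, 14.96 and 13.7 CPM in blank contrast brains. The groups were well apart, with a log2 fold change of -1.04 ± 0.18 and an adjusted p of 0.417 in edgeR and 0.000185 in DESeq2. ARNT2, the neuronal partner of bHLH-PAS transcription factors such as NPAS4, had 163, 124 and 146 CPM against 230, 278 and 218 CPM. It was the most abundant of the 22, and its log2 fold change was -0.75 ± 0.13, with an adjusted p of 0.453 in edgeR and 0.00322 in DESeq2. Summed over its 3 features, ARNT2 had 188 ± 22.3 CPM against 277 ± 29.8 CPM (SD, n = 3 each), a log2 fold change of -0.55 ± 0.12 with an edgeR adjusted p of 0.681.

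Baiap2 and nell2 are expressed by neurons. Baiap2, an actin regulator of the postsynaptic side, had 29.1, 37.2 and 31.4 CPM against 54.7, 51.8 and 51.6 CPM. nell2, a secreted glycoprotein, had 11.8, 47.6 and 24.4 CPM against 85.5, 108 and 92.6 CPM. Neither overlapped between groups, but the sum over both nell2 features differed by -0.09 (log2; unadjusted p = 0.407 in edgeR). TCTN3, of the ciliary transition zone, had the widest fold of the 12, at 0.454 ± 0.241 CPM against 3.57 ± 1.29 CPM (SD, n = 3 each). sp8, a zinc finger transcription factor of forebrain development, had 2.29 ± 1.19 CPM against 6.83 ± 1.47 CPM. Summed over their features, TCTN3 differed by -1.26 and sp8 by -0.64 (log2).

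**Figure D2:**
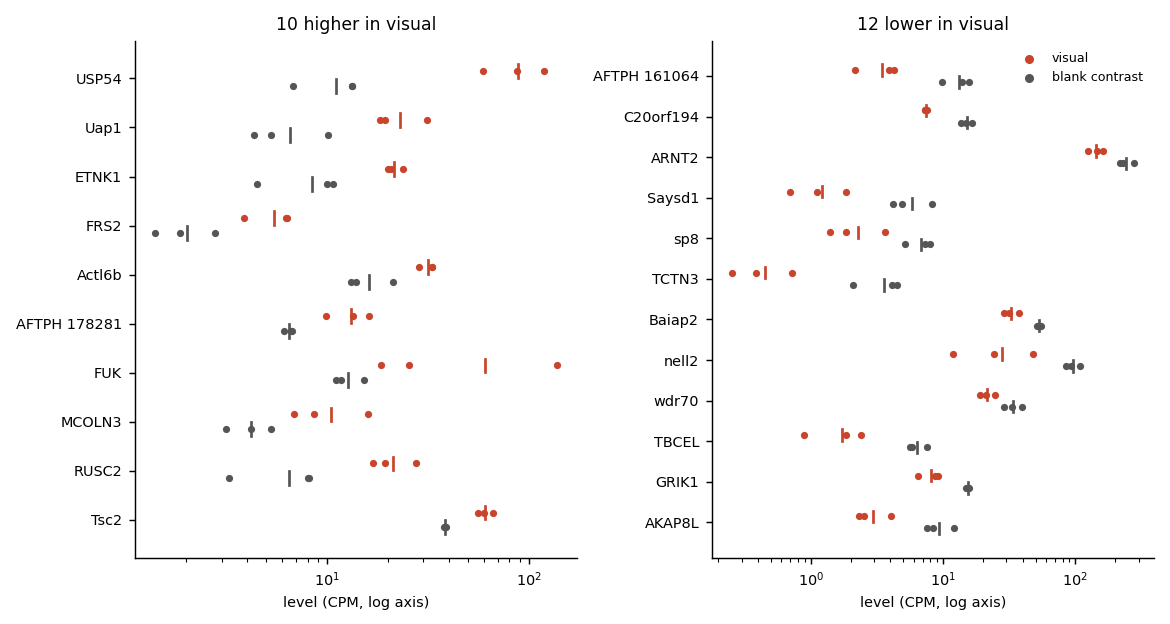
Level in CPM (log scale) of the 10 higher (left) and 12 lower (right) features in each library, with visual in red and blank contrast in grey; 1 dot is 1 library and the bar is the mean of 3. Groups do not overlap for any of the 22, which were chosen for their small p, and FUK has 1 visual library at 138 CPM.

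For 15 of the 22 features the log2 fold change summed over the symbol's features was smaller by more than 1.5 times or of the other sign. It turned sign for 4 of them: FRS2 (an adaptor of growth factor receptors), RUSC2, GRIK1 and the higher AFTPH feature. C20orf194, wdr70 and AKAP8L, also among the 22, stood on 1 tested feature each, so their sums hold nothing else. AFTPH, a clathrin-associated trafficking protein, had 1 feature (Cluster-46846.161064) at 4.25, 3.87 and 2.16 CPM in visual against 15.7, 9.86 and 13.9 CPM in blank contrast. Another (Cluster-46846.178281) had 9.90, 13.4 and 16.2 CPM against 6.59, 6.67 and 6.12 CPM. Summed over its 3 features, AFTPH had 24.2 ± 1.85 CPM and 27.9 ± 3.77 CPM (SD, n = 3 each), a log2 fold change of -0.20 ± 0.16.

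STIM1, the calcium sensor of the endoplasmic reticulum, had 36.9, 62.0 and 36.2 CPM against 125, 154 and 121 CPM on 1 feature and 140, 92.3 and 148 CPM against 30.8, 4.47 and 36.2 CPM on the other, with a summed log2 fold change of 0.14 ± 0.15. For GRIK1, a kainate-type glutamate receptor subunit, the sums were 79.6 ± 1.003 CPM and 76.8 ± 1.81 CPM over 4 features. Of 4283 symbols on several tested features, 60 had at least 2 features at an unadjusted p under 0.05. In 39 of those 60 the features pointed both ways, among them the transposable element names POL (83 features) and GAG-POL (27 features). Over all features 984 were higher and 1004 lower at that p, so unrelated features would often point both ways too. Whether these are splice forms, alleles or divided reads was not tested.

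Counting genes as the sum of their features left the outcome at 0 adjusted calls. edgeR on sums gave 383 of 10300 symbols (3.72%) at an unadjusted p under 0.05. ADI1, an enzyme of the methionine salvage pathway, had summed levels of 12.6, 11.2 and 11.1 CPM against 21.9, 22.9 and 23.6 CPM, with an adjusted p of 0.375. Among the higher symbols PIK3C2A, a class II phosphoinositide kinase, had 100, 76.2 and 86.3 CPM against 47.6, 64.7 and 27.4 CPM.

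EIF3F, a subunit of translation initiation factor 3, had the largest absolute gap among symbols that DESeq2 called. Its main feature had 15.7, 63.1 and 58.4 CPM in visual brains against 606, 309 and 524 CPM in blank contrast brains. Both sets were far apart, with a log2 fold change of -3.39 ± 0.84 and an adjusted p of 0.9997 in edgeR and 0.0143 in DESeq2. Low levels were not particular to visual brains: acoustic 2 had 47.4 CPM and audiovisual 2 had 93.1 CPM, and the other 7 libraries outside the comparison had 363 to 660 CPM. camkv, a kinase-like synaptic protein, had 0.571, 1.39 and 1.36 CPM against 21.7, 13.1 and 11.4 CPM, with an adjusted p of 0.9997 in edgeR and 0.0235 in DESeq2. The sum of the camkv features differed by -0.023 (log2).

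CKM, the muscle creatine kinase, and CCT7, a subunit of the cytosolic chaperonin, varied widely among libraries of 1 group. CKM had 10.1, 32.5 and 1.92 CPM in visual against 1.32, 2.27 and 1.42 CPM in blank contrast, and the groups overlapped through visual 3. CKM was the 1 skeletal muscle marker of 6 that stood on a feature. On the longer muscle list 10 of 14 tested features lay above 0, with a median of 0.22. CKM and TCAP, both higher, had an unadjusted p under 0.05 (14.3% of the list, against 4.66% of all features). The summed share of the muscle list was 0.0247% to 0.0270% of counts in visual and 0.0200% to 0.0257% in blank contrast brains (exact permutation test, two-sided p = 0.2). Means of that share were 0.0252% in dark contrast, 0.0244% in acoustic and 0.0240% in audiovisual brains. CKM ran from 1.10 to 9.36 CPM in the libraries outside the comparison. In audiovisual against acoustic brains 7 of the 14 muscle features lay above 0, with a median of -0.08. The part of the muscle share in the CKM value was not tested. One CCT7 feature (Cluster-46846.164671) had 132, 164 and 102 CPM against 2.72, 4.75 and 119 CPM. It passed the threshold only without blank contrast 3, with an edgeR adjusted p of 0.0344, and the CCT7 sum over both features differed by 0.55 (log2; unadjusted p = 0.233).

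**Figure D3:**
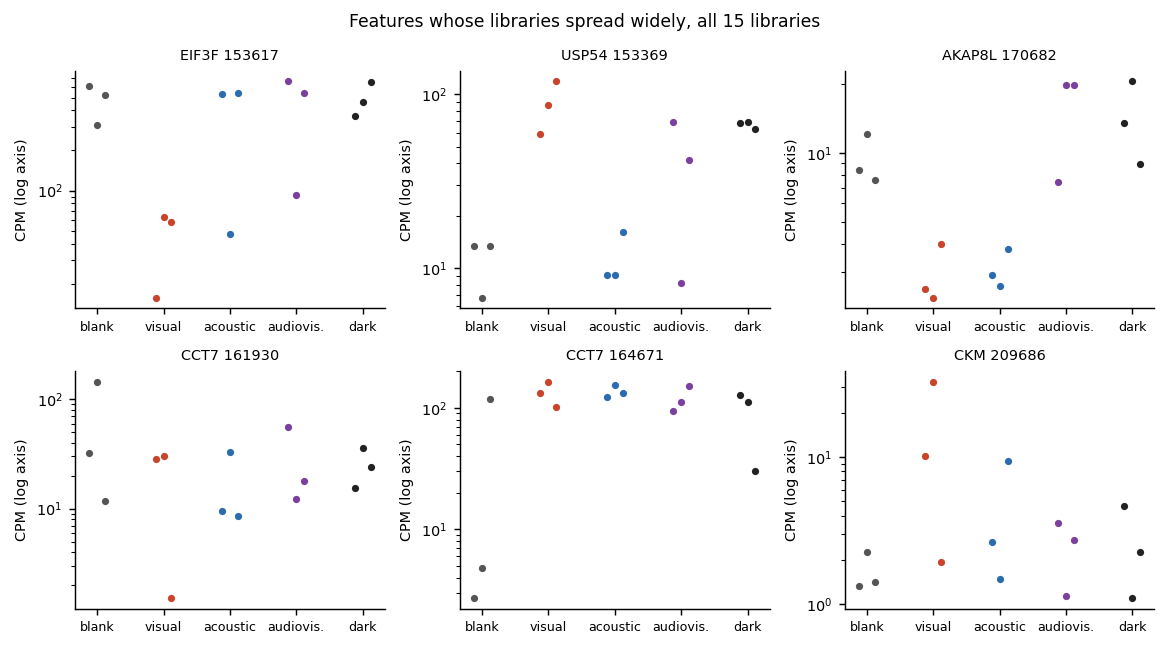
Level in CPM (log scale) of 6 features in all 15 libraries, by group; 1 dot is 1 library. EIF3F is low in all 3 visual libraries and in acoustic 2 and audiovisual 2, and 1 CCT7 feature is low in 2 blank contrast libraries.

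No immediate early gene passed the adjusted threshold in edgeR or DESeq2. FOS, a transcription factor subunit, had 31.4, 20.6 and 14.4 CPM in visual against 28.2, 25.5 and 14.6 CPM in blank contrast. The groups overlapped fully, with a log2 fold change of -0.04 and a 95% interval from -1.29 to 1.21. egr1 had 143, 138 and 87.9 CPM against 143, 175 and 96.2 CPM, with an interval from -1.02 to 0.69; its closest protein match in the deposited NR description is another zinc finger protein, so its identity is uncertain. ARC, a synaptic plasticity protein, had 90.5, 93.5 and 67.1 CPM against 129, 115 and 82.3 CPM, and JUNB overlapped as well. NPAS4, an activity-dependent transcription factor, had 11.9, 14.1 and 13.7 CPM against 21.0, 19.8 and 15.7 CPM. The visual libraries were the lower ones, with a log2 fold change of -0.51 and an interval from -1.43 to 0.41 (edgeR adjusted p = 0.9997). Of 54 tested features on the immediate early gene list, 18 lay above 0 and 36 below, with a median of -0.07 against -0.00 over all features. An unadjusted p under 0.05 was reached by 2 of the 54 (3.70%, against 4.66% of all features), ier5l (0.45 ± 0.18) and Egr2 (-1.59 ± 0.58). Egr2 was scarce, at 0.190, 0.155 and 0.641 CPM against 0.931, 1.63 and 0.373 CPM, with overlapping groups. With 1 library left out its log2 fold change ran from -2.44 to -0.998.

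Genes of light detection were few. Of the phototransduction and visual cycle list, 12 features of 9 symbols were tested, 5 above 0 and 7 below, with a median of -0.02. GNAT2, the cone transducin subunit, had 9.46, 17.4 and 14.6 CPM against 14.7, 20.9 and 27.1 CPM, with overlapping groups and an unadjusted p of 0.0424 in edgeR. RPE65, the isomerase of the visual cycle, had 18.2, 15.7 and 12.9 CPM against 13.6, 15.2 and 11.1 CPM. RGR, an opsin-like retinal photoisomerase, had 62.7, 42.8 and 53.8 CPM against 56.1, 53.5 and 57.7 CPM, so neither separated the groups. On the list of non-visual opsins and pineal genes, RGR was the 1 of 4 tested features below 0, and the median was 0.12. Of the 12 phototransduction features, 2 had all visual libraries higher and 0 had all lower, against 5.01% and 5.38% of all features.

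The list of visual midbrain and thalamic region genes gave 54 features above 0 and 31 below, of 85 tested. Its 87 deposited features carried 38 symbols, so features of 1 symbol were counted separately. Over all features 21093 lay above 0 and 21526 below. The list median of the log2 fold change was 0.10, but -0.02 in audiovisual against acoustic brains, where 38 of the 85 lay above 0. An unadjusted p under 0.05 was reached by 5 higher and 1 lower (7.06% of the list, against 4.66% of all features). No feature of the list passed adjustment in edgeR or DESeq2. TFAP2B had 5.08, 6.27 and 4.25 CPM in visual against 3.49, 2.06 and 1.57 CPM in blank contrast, and irx3 had 7.81, 6.27 and 8.65 CPM against 4.42, 6.17 and 3.58 CPM. Both were higher without overlap between groups, but the sum of the TFAP2B features differed by 0.17 (log2). lhx5 had 23.4, 18.4 and 21.8 CPM against 14.04, 17.4 and 16.4 CPM, and 2 features of Tcf7l2 differed by 0.50 and 0.40 (log2). Foxp2 was the lower one, at 1.11 ± 0.166 CPM against 1.96 ± 0.229 CPM (SD, n = 3 each), and the sum of the Foxp2 features turned to 0.010 (log2). In audiovisual against acoustic brains TFAP2B differed by 0.87 and lhx5 by 0.39 (log2), in the same direction. The others went the other way: irx3 by -0.01, the 2 features of Tcf7l2 by -0.28 and -0.18, and Foxp2 by 0.17. The share of each region in a dissected brain was not measured, and its part in these values was not tested.

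Neuropeptide genes gave 46 features above 0 and 30 below, with a median of 0.09. An unadjusted p under 0.05 was reached by 3 higher and 1 lower of the 76 tested (5.26%, against 4.66% of all features). nmu, the precursor of neuromedin U, had 8.13, 3.48 and 5.53 CPM against 2.56, 2.55 and 2.09 CPM. GAL, the precursor of galanin, had 7.81, 5.42 and 5.05 CPM against 2.40, 3.97 and 3.21 CPM. These precursors were higher in all 3 visual libraries on these features, with sums per symbol differing by 0.51 for nmu and 0.13 for GAL (log2), whereas SSTR2, a somatostatin receptor, had 9.33, 12.5 and 11.1 CPM against 15.3, 33.9 and 12.5 CPM. Among monoamine genes, drd5, a D1-class dopamine receptor, had 9.27, 4.64 and 8.01 CPM against 12.95, 12.3 and 14.6 CPM, a log2 fold change of -0.86 ± 0.22. Glutamate receptor and scaffold genes had a median of -0.05 over 141 features, GABA and glycine genes -0.04 over 68, and synaptic vesicle genes -0.03 over 161.

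The median log2 fold change of the 8 mitochondrially encoded features was 0.24, and each of them was above 0. Their summed share was 5.93%, 5.396% and 6.96% of counts in the visual libraries and 5.62%, 4.69% and 6.02% in blank contrast. The shares overlapped, at 6.10% ± 0.796 and 5.45% ± 0.687 (SD, n = 3 each; exact permutation test, two-sided p = 0.5, where 0.1 is the smallest possible). MT-ND5, a complex I subunit, had the smallest p of the 8, with 3.13e+03 ± 448 CPM against 2.40e+03 ± 445 CPM. Its groups overlapped, with an unadjusted p of 0.0303 and an adjusted p of 0.9997 in edgeR. The nuclear genes of oxidative phosphorylation had a median of -0.03 over 93 features. Of those, NDUFS8, of complex I, had 22.4, 21.4 and 37.7 CPM against 59.8, 61.5 and 59.9 CPM.

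Other lists held few members at an unadjusted p under 0.05. Over 40 lists, 102 of 2443 distinct features (4.18%) were under it, near the 4.66% of all features, and none passed adjustment in edgeR; DESeq2 called 1, camkv. Proteasome genes had 4 of 66 (6.06%), all lower, among them psmc5, an ATPase of the regulatory particle. It had 26.9, 10.6 and 10.4 CPM against 56.7, 43.7 and 49.4 CPM, and the sum of the psmc5 features differed by -0.22 (log2). Extracellular matrix genes had 5 higher and 1 lower, of 96 tested (6.25%). Col4a1, a basement membrane collagen, had 17.1, 21.4 and 28.6 CPM against 3.41, 1.84 and 9.11 CPM, and the laminin gene LAMB1 had 5.52, 12.9 and 10.5 CPM against 16.8, 22.4 and 28.9 CPM. Neither of those overlapped between groups, and the Col4a1 sum differed by 1.24 (log2). In audiovisual against acoustic brains LAMB1 differed by -1.21 and this Col4a1 feature by 0.98 (log2; unadjusted p = 0.00412 and 0.148 in edgeR). Clock genes had 3 higher and none lower, of 48 tested (6.25%). CRY1, a repressor of the clock, had 46.6 ± 7.81 CPM against 32.5 ± 4.88 CPM (SD, n = 3 each). Microglial and immune genes had the lowest median, -0.19 over 37 features, and red blood cell genes the highest, 0.31 over 12. Of these features 2.70% and 0% had an unadjusted p under 0.05. In audiovisual against acoustic brains the medians were 0.03 and -0.20. Each median in visual against blank contrast leaned on 1 library. Without blank contrast 3 that of microglial and immune genes was 0.0091, and without blank contrast 1 that of red blood cell genes was 0.11.

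Red blood cell transcripts took 0.0822% to 0.118% of counts in visual and 0.0719% to 0.110% in blank contrast brains, an overlapping range (exact permutation test, two-sided p = 0.5). Shares of pituitary, choroid plexus and hair cell genes overlapped as well, with exact two-sided p-values of 0.7, 0.5 and 0.5. Across 612 Gene Ontology terms with at least 20 tested features, median log2 fold changes ran from -0.28 to 0.16. The median share of features at an unadjusted p under 0.05 was 3.77% over the terms, against 4.66% of all features, and the highest was 20%. In 119 of those terms no feature was under it, which small terms easily reach at such shares.

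**Figure D4:**
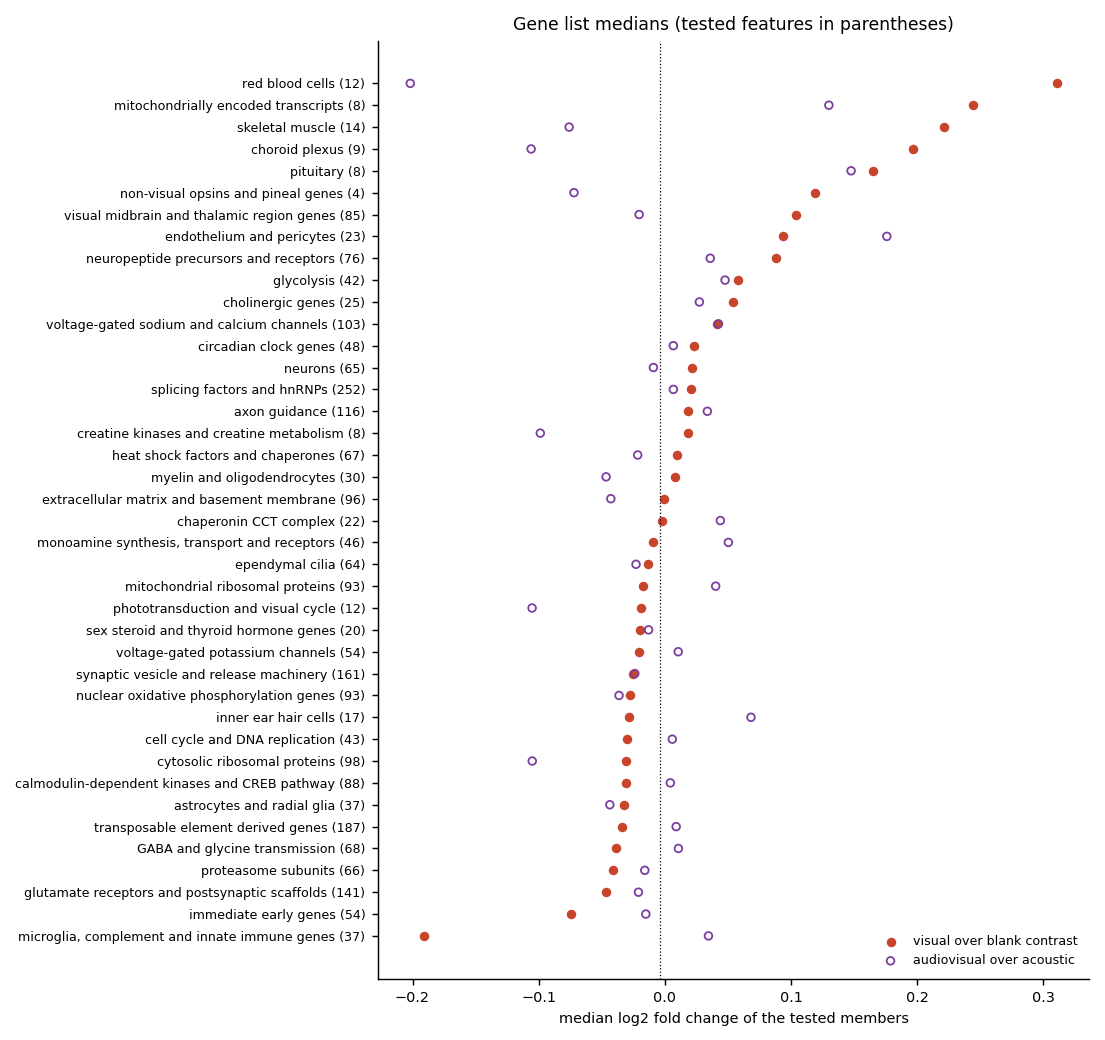
Median log2 fold change of the tested members of 40 gene lists, for visual over blank contrast (filled) and audiovisual over acoustic (open); the dotted line is the median of all features. Medians of the first contrast run from -0.19 (microglial and immune genes) to 0.31 (red blood cell genes).

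A visual cue was also present in the audiovisual group, and the acoustic group shows its absence under sound. These 6 libraries share none with the comparison above. The labels do not say what the acoustic frogs saw, so both contrasts may differ in more than the sound. edgeR gave 0 adjusted calls there too (0%), with 2090 features (4.9%) at an unadjusted p under 0.05, and DESeq2 gave 37 calls (0.103%). Across the 42619 features the fold changes of both contrasts had a Pearson r of 0.01, with the same sign for 51.0%, and of the 22 named features 9 had the same sign. The higher USP54 feature was among those, with a log2 fold change of 1.80 with sound, and the lower USP54 feature was lower in both contrasts, at -1.86 and -1.30. In the first of them the audiovisual libraries had 69.3, 8.19 and 41.7 CPM, so 1 of 3 was as low as the acoustic libraries.

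The difference between both effects gave 0 adjusted calls in edgeR (0%), 1894 features (4.44%) at an unadjusted p under 0.05, and 48 calls in DESeq2 (0.115%). AKAP8L, a nuclear protein on the list of splicing factors, had the smallest p. It had 2.54, 2.32 and 4.01 CPM in visual against 8.38, 12.1 and 7.62 CPM in blank contrast brains, and 7.49, 19.7 and 19.8 CPM in audiovisual against 2.91, 2.61 and 3.80 CPM in acoustic brains. The direction was opposite in the contrasts, with a difference of -4.00 (log2; adjusted p = 0.299 in edgeR and 1.004e-06 in DESeq2).

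**Figure D5:**
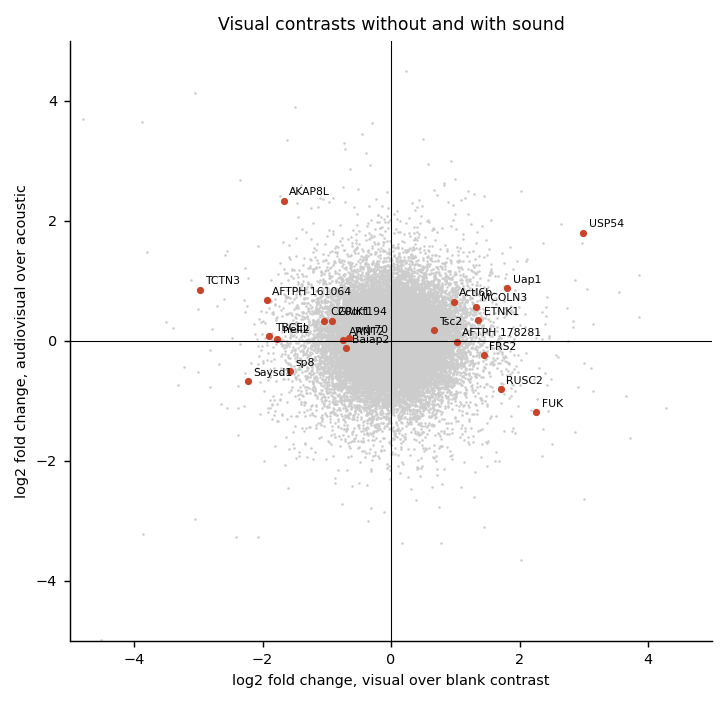
Log2 fold change of audiovisual over acoustic (vertical axis) against visual over blank contrast (horizontal axis) for all tested features, with the 22 named ones in red; 1 feature lies outside the plotted range. The cloud has no tilt (Pearson r of 0.01), the higher USP54 feature is above 0 in both contrasts and AKAP8L lies in the opposite quadrant.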

How the data were processed

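RNA of whole brains was sequenced as paired reads on an Illumina X-ten, per the labels' protocols. The authors deposited estimated counts per clustered transcript, not normalized, and FPKM, per the file headers; for the assembler and the counter, names were not given in the sources used here. Of the deposited counts, 57.4% were whole to within 1e-06, and the lowest deposited FPKM is 0.31. Counts were rounded, scaled by TMM and fitted with edgeR 4.0.16 (quasi-likelihood, R 4.3.3) over all 15 libraries in 5 groups, with 10 residual degrees of freedom and a common biological coefficient of variation of 0.329. Features needed a mean FPKM of at least 1. Benjamini-Hochberg adjustment ran over all tested features. The SE is the absolute log2 fold change over the root of its F statistic. DESeq2 1.42.0, limma 3.58.1 on log2(FPKM + 1) and log2(FPKM + 0.1), other filters and scaling, sums per symbol and fits without each library were alternatives. Shares were compared by exact permutation. Named features were the 12 higher and 12 lower ones by p with a symbol and at least 1 CPM (2 of the higher are not reported here), DESeq2 calls, set activity, mitochondrial, CKM and CCT7 features, and per list the smallest p and most abundant members. Symbols with features in both directions and symbol sums were singled out after their values were seen. The comparison, lists and rules were chosen with earlier results of these data known. The fit was tested on simulated data. No sequences are shown.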

Additional observations from a re-analysis of the deposited data

How the results depend on the processing

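The 0 adjusted calls of edgeR in visual against blank contrast held with only the contrast's groups in the fit, both other filters, median-of-ratios scaling, sums per symbol and limma on log2(FPKM + 1). DESeq2 gave 32 calls there, 37 in audiovisual against acoustic and 48 in the difference of the effects, and limma on log2(FPKM + 0.1) gave 1 in the first; the cause was not tested. Leaving out 1 library gave 0 to 1 calls in each of the 3 comparisons: CCT7 without blank contrast 3, LHFP without audiovisual 1 and a feature with no symbol without audiovisual 2 in the contrast with sound, and AKAP8L without audiovisual 1 and a feature with no symbol without audiovisual 3 in the difference. The replicate block also gave 0 calls in all 3. Same-numbered libraries of the visual and blank contrast groups had deviations that correlated by -0.00, 0.02 and -0.01, and differently numbered ones by -0.01 to 0.02. These values showed no pairing by number but cannot exclude it.

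Sums per symbol turned the direction of single features, to -0.067 for FRS2, -0.20 for AFTPH, -0.23 for RUSC2, 0.059 for GRIK1, 0.55 for CCT7, 0.010 for Foxp2 and 0.14 for STIM1 (log2). With 1 library left out, FOS ran from -0.38 to 0.19, egr1 from -0.37 to 0.038 and RGR from -0.21 to 0.063. The pituitary share difference ran from -0.00164 to 0.00334 percentage points.

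List medians moved by more than the spread between libraries in 29 of the 600 refits, 3 of them other than leaving out a library: non-visual opsins and pineal genes to -0.067 with no filter, neurons to -0.010 as sums per symbol, and visual midbrain and thalamic genes to 0.15 with limma on log2(FPKM + 0.1). Without 1 library, medians ran from -0.084 to 0.19 for phototransduction, -0.11 to 0.0090 for nuclear oxidative phosphorylation, 0.11 to 0.40 for skeletal muscle, 0.11 to 0.39 for red blood cells, 0.028 to 0.23 for pituitary and -0.017 to 0.044 for neurons. They ran from -0.28 to 0.0091 for microglial and immune genes, -0.016 to 0.19 for endothelium, 0.046 to 0.13 for cholinergic genes, 0.037 to 0.10 for neuropeptides, -0.090 to 0.070 for steroid and thyroid hormone genes and -0.066 to 0.059 for potassium channels. For sodium and calcium channels the range was 0.017 to 0.059, for synaptic vesicle genes -0.042 to 0.0045, for calmodulin-dependent kinases -0.11 to -0.026, for the chaperonin -0.044 to 0.067 and for the proteasome -0.11 to 0.0046. Splicing factors ranged from -0.0051 to 0.057, cell cycle genes from -0.18 to 0.012, visual midbrain and thalamic genes from 0.067 to 0.15 and transposable element genes from -0.058 to 0.023. With 3 libraries a group, an exact permutation p cannot go below 0.1.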
